A study of Drosophila melanogaster with 2 samples.

Results

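Genes of the ecdysone response were examined for binding of the protein encoded by CG3847 in Drosophila melanogaster embryos. They were taken as a list of names, hereafter the members: EcR, usp, br, Eip74EF, Eip75B, Eip78C, Eip93F, Hr3, Hr4 and ftz-f1, which are 10 of 13968 protein-coding genes on the major chromosomes. A peak was assigned to a gene when its summit lay inside the gene span or within 500 bp of any of its transcription start sites (TSSs). This gave 37 of the 6148 peaks of the optimal set on the major chromosomes. The set is the authors' list made from both replicates and cut at an irreproducible discovery rate (IDR) of 0.01, where the IDR measures how far a peak keeps its rank between data sets.

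The assay was chromatin immunoprecipitation with sequencing on whole transgenic embryos aged 0 to 24 h that carried a fusion of CG3847 with enhanced green fluorescent protein, recovered with an antibody to GFP. There was 1 group with 2 biological replicates, all from the same kind of fly, so no condition was compared. Control libraries were not used here, so a peak stands for signal in this precipitation and not for binding proven to depend on CG3847. The embryos spanned all of embryogenesis and all tissues, and the cells or hours that carry a peak cannot be told apart. No expression was measured, so whether these genes responded to the hormone in these embryos was not tested.

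Ecdysone is the steroid hormone of insect moulting. Its active form binds a heterodimer of the nuclear receptors EcR and Usp, which then switches on a small set of early genes encoding transcription factors, and these in turn set off late genes. The cascade is best known from larval salivary glands and metamorphosis, and a pulse of the hormone in the middle of embryogenesis is needed for morphogenesis of the embryo.

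The sequences below are those under the strongest peak of each gene whose sequence can be shown here. They are shown because the results below ask which promoter and hormone response motifs these peaks hold. Each is from the plus strand of the Release 6 reference (dm6), centred on the summit or moved by up to 41 bp to keep within 30 bases of annotated UTR, and capitals mark any match to the motifs described with the motif results. The usp window held TATAAA 2 times, and the ftz-f1 window held TATCGATA, a GAGAG and the core CGATA 3 times, of which matches on both strands lie inside TATCGATA. The Eip75B window held 1 GAGAG and the Hr4 window 1 CGATA, and the windows of br, Eip74EF, Eip78C and Eip93F held no match. Their GC content ran from 27.7% at Eip75B to 56.4% at ftz-f1.
usp, chrX:2041390-2041490: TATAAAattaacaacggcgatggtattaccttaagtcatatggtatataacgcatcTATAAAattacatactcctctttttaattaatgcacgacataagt
br, chrX:1618796-1618896: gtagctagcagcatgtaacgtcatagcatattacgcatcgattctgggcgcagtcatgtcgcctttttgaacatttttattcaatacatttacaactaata
Eip74EF, chr3L:17597074-17597174: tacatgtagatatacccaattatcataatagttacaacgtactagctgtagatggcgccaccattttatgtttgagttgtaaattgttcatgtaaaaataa
Eip75B, chr3L:17999792-17999892: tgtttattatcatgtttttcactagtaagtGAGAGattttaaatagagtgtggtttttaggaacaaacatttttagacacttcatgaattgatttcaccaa
Eip78C, chr3L:21251492-21251592: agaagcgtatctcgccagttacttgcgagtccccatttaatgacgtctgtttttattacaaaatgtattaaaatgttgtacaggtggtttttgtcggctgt
Eip93F, chr3R:21993089-21993189: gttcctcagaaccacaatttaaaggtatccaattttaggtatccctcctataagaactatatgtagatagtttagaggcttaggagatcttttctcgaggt
Hr4, chrX:1963894-1963994: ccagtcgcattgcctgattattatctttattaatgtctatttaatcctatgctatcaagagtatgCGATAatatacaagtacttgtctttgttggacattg
ftz-f1, chr3L:18801512-18801612: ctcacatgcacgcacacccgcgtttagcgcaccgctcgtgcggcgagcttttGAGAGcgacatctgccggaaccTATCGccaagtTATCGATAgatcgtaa

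Peaks at these genes lay mostly inside introns, far from start sites. All 10 genes had at least 1 optimal peak, a state shared by 35.4% of all protein-coding genes. The members are long, with a median span of 63.0 kb, and among the 213 protein-coding genes at least that long 69.5% had a peak. Those genes leave out the shorter members, such as usp with 3.51 kb. The only peaks of usp and of br also lay within the span of another gene. Of the 37 summits, 28 were in introns, 4 in coding exons, 4 in 5′ UTRs and 1 upstream of a gene span. The median distance to the gene's own nearest TSS was 5836 bp, and 21 summits were more than 5000 bp away. No such values were taken for peaks gathered in the same way at other genes of this length. The part of the long spans in these places was not tested.

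Few member peaks lay near start sites, but the share of members with such a peak was near the background. Only 5 of the 37 summits were within 500 bp of a TSS of their gene, and 1 more was within 500 bp of another gene's TSS. Of all optimal summits, 58.7% were within 500 bp of some TSS. The 37 were gathered over long gene spans and the others were not, so these shares are not like for like. The 5 near a TSS of their own gene belonged to Eip75B with 3, usp with 1 and ftz-f1 with 1, so 3 of 10 members had a TSS-proximal peak. The same held for 31.0% of all protein-coding genes and for 30.5% of those with a span of at least 63.0 kb, so the members' share was near the background. With 1 TSS per gene in place of all alternative ones, the count fell to 1 member, ftz-f1. Counted by position, 5 of the 38 distinct TSSs of the members had a summit within 500 bp, against 28.0% of the 19275 distinct TSSs of protein-coding genes. Positions close together were counted apart, such as the starts of br-RN and br-RO, 17 bp from each other. No such count was made for long genes alone. The proximal summit farthest from its TSS was 253 bp away, at ftz-f1, and the nearest distal summit was 1047 bp away, at Eip75B.

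**Figure D1:**
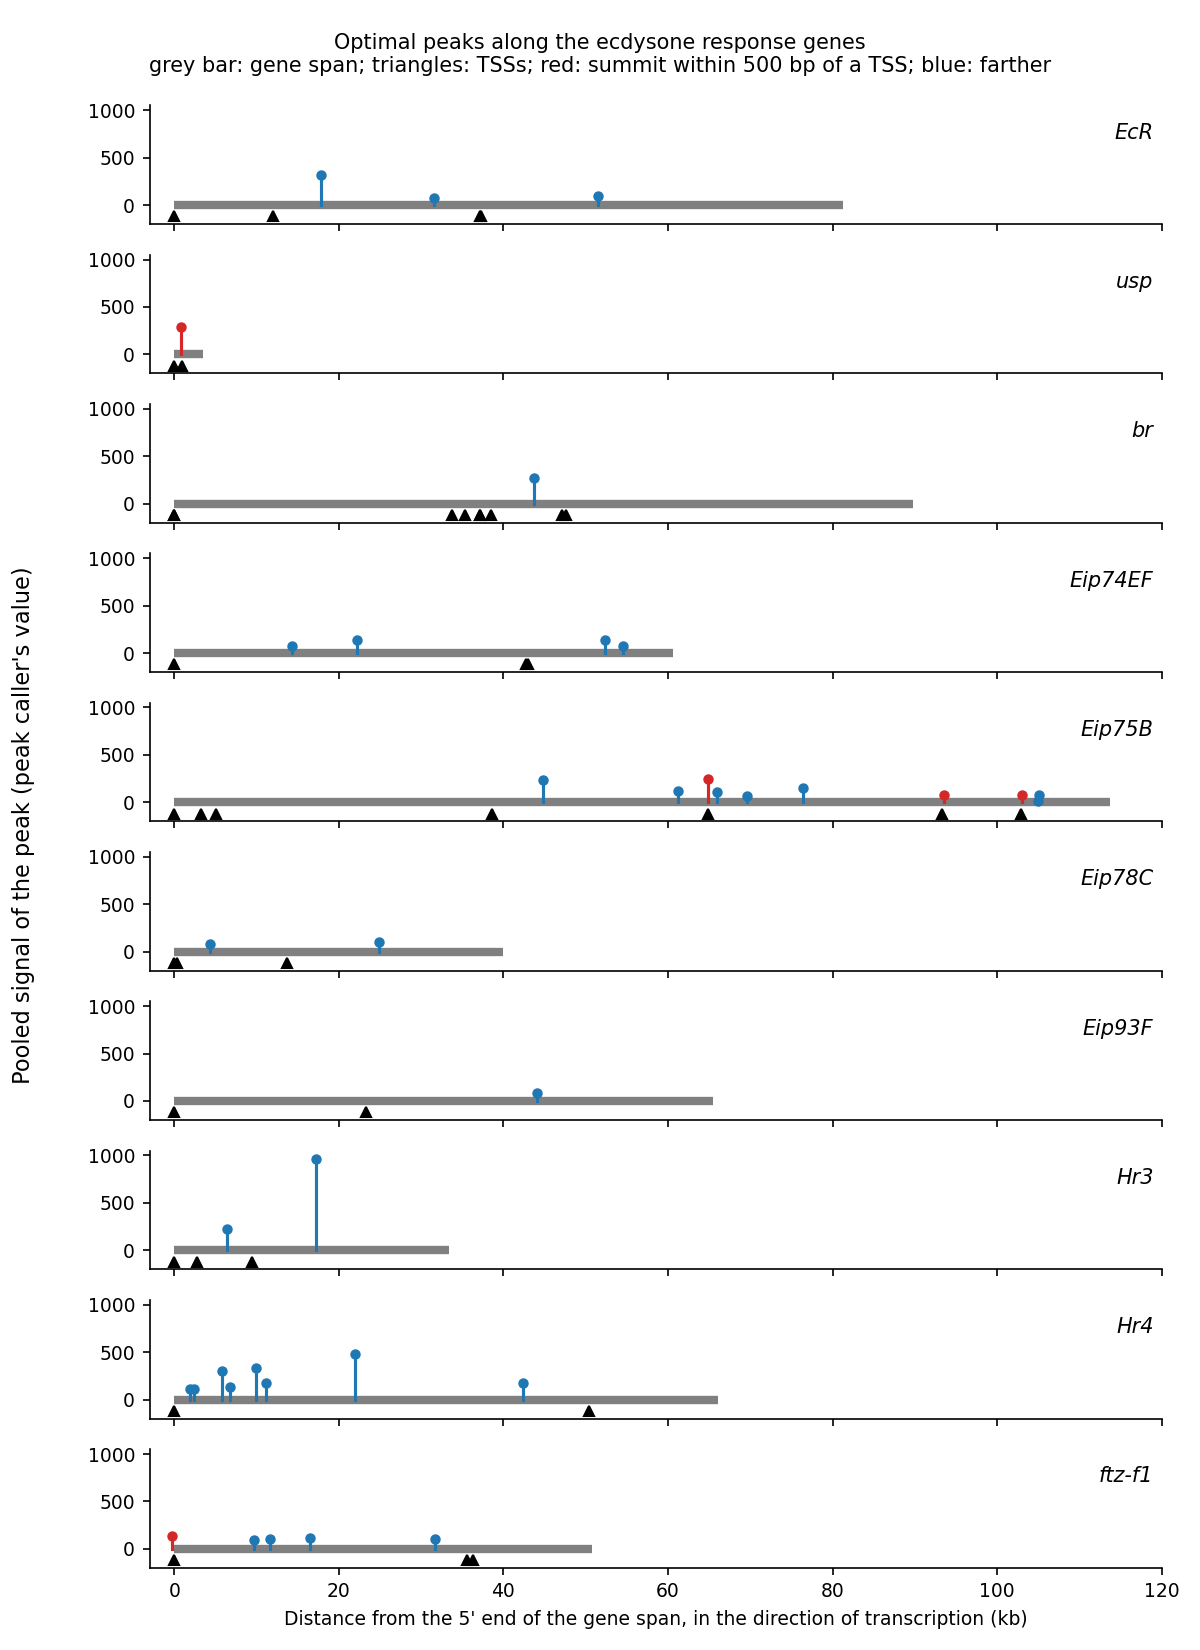
Optimal peaks along the 10 genes, with the distance from the 5′ end of the gene span in kb on the horizontal axis and the pooled signal, in the peak caller's own units, on the vertical axis. Each stem is 1 of the 37 peaks, and only 5 stems, at usp, Eip75B and ftz-f1, are drawn in red for a summit within 500 bp of a TSS of the gene. The tallest stem, of 961, is in Hr3.

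The signal quoted for a peak is the value that the authors' peak caller gave it, on a scale that no source used here names. The pooled value behaved as the sum of the replicate values: over 36 member peaks, all but the weakest, its ratio to that sum had a median of 1.00 and ran from 0.741 to 1.07. Member peaks had a median pooled signal of 116, with a range of 19.2 to 961. Over all optimal peaks the median was 132, and over the 2537 optimal peaks more than 500 bp from any TSS it was 109. The member peaks were thus of ordinary strength, and only the strongest at Hr3 ranked within the top 100 of 6148, at place 89. For each optimal peak, the value given below for a replicate is that of the strongest peak overlapping it in the ranked table of that replicate, which lists peaks of any strength.

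The receptor genes came first in the order of the pathway, and their peaks differed in place. EcR (FBgn0000546, chr2R:6087873-6169087, minus strand, 6 transcripts from 4 TSSs) encodes the ecdysone receptor and had 3 optimal peaks, none near a TSS of EcR. The strongest, at chr2R:6151172-6151348, had a pooled signal of 321, with 154 in replicate 1 and 162 in replicate 2. It lay in an intron, 5836 bp downstream of the start of EcR-RD and EcR-RE, the nearest of the 4 TSSs, and was past the threshold in both replicates. The peak at chr2R:6117455-6117844 was weaker, with a pooled signal of 90.7, and passed in replicate 2 alone, where its signal was 58.6 against 28.2 in replicate 1. The log2 ratio of replicate 2 to replicate 1 was 1.06 there, the highest of the 37. The EcR peak at chr2R:6137348-6137737, with a pooled signal of 72.5, was past the threshold in neither replicate, with 33.7 in replicate 1 and 38.5 in replicate 2. Its summit was 240 bp from the TSS of CG14589, a gene nested in EcR, so by position it cannot be given to EcR alone. It was the only distal member peak within 500 bp of another gene's TSS.

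In contrast, usp (FBgn0003964, chrX:2038798-2042311, minus strand), the gene for the partner of EcR and a relative of the vertebrate retinoid X receptors, is only 3514 bp long and had its single peak at a start site. The peak at chrX:2041382-2041557 had a pooled signal of 284, with 152 in replicate 1 and 128 in replicate 2. Its summit was 169 bp upstream of the TSS of usp-RA and in the 5′ UTR of the longer transcript usp-RB. The same summit lay within the span of Actn, the alpha-actinin gene, and 387 bp from a TSS of CG4313, so the peak cannot be given to usp alone. At the other TSS, that of usp-RB, the strongest ranked peak had a pooled signal of 59.2 and was below the threshold.

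The classical early genes, br, Eip74EF and Eip75B, encode transcription factors whose transcription the hormone induces directly. They shared large spans but differed in their peaks and in their number of TSSs, 9 at br, 3 at Eip74EF and 7 at Eip75B. br (FBgn0283451, chrX:1575132-1664869), which encodes the BTB zinc finger proteins of the Broad-Complex, has 16 transcripts from 9 TSSs over 89.7 kb and had 1 optimal peak. This peak, at chrX:1618787-1618911, had a pooled signal of 268, with 148 in replicate 1 and 113 in replicate 2, and was past the threshold in both. It was intronic, 3462 bp upstream of the start of br-RS, inside the nested mucin-related gene Mur2B and 691 bp from that gene's TSS. The pooled ranked table listed 108 peaks of any strength at br, and all but the optimal peak missed the threshold, with signals up to 73.8. None of the 9 br TSSs had a pooled ranked signal above 46.9, the value at br-RS.

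Eip74EF (FBgn0000567, chr3L:17558672-17619325, minus strand) encodes an Ets domain transcription factor with an A form and a B form made from different promoters. It had 4 optimal peaks, 3 in introns and 1 in a coding exon, and none nearer than 9330 bp to a TSS of Eip74EF. The strongest, at chr3L:17596929-17597318, had a pooled signal of 139.8 and was past the threshold in both replicates with 61.0 in replicate 1 and 92.9 in replicate 2. The next, at chr3L:17566795-17567184, had a pooled signal of 136 and went the other way, with 93.0 in replicate 1, past the threshold, and 42.0 in replicate 2, below it. The replicates thus did not order these peaks alike. The coding exon peak at chr3L:17564592-17564981 had a pooled signal of 76.2, with 45.1 in replicate 1 and a log2 ratio of -0.59 for replicate 2 over it. The intronic peak at chr3L:17604798-17605187 had 75.3, with 33.1 and 40.2 in replicates 1 and 2. Neither passed in a replicate alone. At the 3 TSSs of Eip74EF the ranked signals reached 48.8 and none passed.

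Eip75B (FBgn0000568, chr3L:17950953-18064696, minus strand), a nuclear receptor gene whose protein binds heme and counteracts Hr3, held 10 of the 37 peaks and was the only member with more than 1 peak at start sites. Its 7 transcripts have 7 different TSSs. The strongest peak, at chr3L:17999615-18000004, sat on the start of Eip75B-RC, with its summit 11 bp downstream. Its pooled signal was 244, with 126 in replicate 1 and a lower value in replicate 2, at a log2 ratio of -0.32. The peak at the start of Eip75B-RD, chr3L:17961488-17961877 with a summit 131 bp downstream, had a pooled signal of 76.0, and that at the start of Eip75B-RA, chr3L:17971017-17971406 with a summit 227 bp downstream, had 72.6. The replicates gave 42.9 and 44.0 at Eip75B-RD and 45.7 and 52.3 at Eip75B-RA, where replicate 2 alone passed the threshold. A further ranked peak near the start of Eip75B-RA was slightly stronger, at 73.6, and yet missed the threshold. The starts of Eip75B-RG and Eip75B-RB had ranked signals of 35.0 and 28.8 below the threshold, and none was listed at those of Eip75B-RE and Eip75B-RF.

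Among the 7 other Eip75B peaks, an intronic peak at chr3L:18019749-18019916, 6198 bp downstream of the start of Eip75B-RG, nearly equalled the promoter peak. Its pooled signal was 238, with 126 in replicate 1 and 118 in replicate 2. An intronic peak at chr3L:17988116-17988505 followed with a pooled signal of 151 and 72.0 and 75.5 in the replicates. These and the Eip75B-RC peak were the only Eip75B peaks past the threshold in both replicates. The remaining 5 had pooled signals from 19.2 to 116 and passed in neither replicate alone. An intronic peak at chr3L:18003301-18003690 had 116, with 53.5 and 63.2 in replicates 1 and 2. A coding exon peak at chr3L:17998579-17998968 had 104, with 57.3 and 39.9, and its summit was 1047 bp downstream of the start of Eip75B-RC. An intronic peak at chr3L:17994859-17995248 had 68.2, with 23.8 and 42.3.

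The last pair overlapped near the 3′ end of Eip75B. The peak at chr3L:17959392-17959781, with its summit in a coding exon, had a pooled signal of 73.6, and that at chr3L:17959598-17959987, with its summit in an intron, had 19.2. Both matched the same replicate peaks, of 36.6 and 39.6, so they are not separate observations in the replicates. The conservative set, which rests on the replicates being compared directly, held 2 peaks at Eip75B that overlapped no optimal peak, with signals of 115 at chr3L:18005145-18005534 and 76.9 at chr3L:18029572-18029961. The former had the highest score of 1000 in that comparison and a score of only 54 in the ranked table behind the optimal set.

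Eip78C, Hr3 and Hr4 encode nuclear receptors that respond after or along with the early genes, and the strongest member peaks were here. Hr3 (FBgn0000448, chr2R:10203995-10237348, minus strand), whose protein activates ftz-f1, had 2 optimal peaks, both intronic and both past the threshold in each replicate. The peak at chr2R:10219922-10220248 had a pooled signal of 961, with 515 in replicate 1 and 446 in replicate 2, 1.98 times the next member peak. Its summit was 7883 bp downstream of the TSS that Hr3-RA, Hr3-RF and Hr3-RH share. The annotated genes CG12912 and CG46321 also span that summit, and a TSS of CG46321 lies at the same distance. The other Hr3 peak, at chr2R:10230688-10231077, had a pooled signal of 226, with 143 in replicate 1 and 75.3 in replicate 2. Its summit also lay within the span of CG12912. At the 3 TSSs of Hr3 the highest ranked signals were 49.2, 38.2 and 18.9, all below the threshold.

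Hr4 (FBgn0264562, chrX:1941940-2007956, plus strand) had 8 optimal peaks, all intronic and none nearer than 1876 bp to a TSS of Hr4. The strongest, at chrX:1963815-1964063, had a pooled signal of 484, with 277 in replicate 1 and 202 in replicate 2, and lay 22004 bp downstream of the TSS shared by 7 of the 9 Hr4 transcripts. The peak at chrX:1951800-1952035 had a pooled signal of 333, with 191 and 147 in replicates 1 and 2. The peak at chrX:1947647-1947845 had 304, with 187 and 119.5. In each of these peaks replicate 1 was the higher. The conservative set held 1 further Hr4 peak, at chrX:2005822-2006211, with a signal of 76.1.

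The Hr4 peaks formed a cluster near the 5′ end of the gene. The 6 summits nearest that end fell within 9.30 kb, and the other 2 lay 22004 bp and 42379 bp from it. The 5 further peaks had pooled signals from 110.2 to 179. Far from the cluster, chrX:1984124-1984513 had 179, with 104 in replicate 1 and 76.0 in replicate 2. Within it, chrX:1952920-1953309 had 178, with 95.4 and 87.0, and chrX:1948498-1948887 had 133, with 63.2 and 63.6. The peak nearest the 5′ end, at chrX:1943621-1944010, had 116, with 67.1 and 55.5. Of the 8, 7 were past the threshold in both replicates, and the last, at chrX:1944171-1944560, passed in replicate 1 alone with 62.6 against 49.4 in replicate 2. At the 2 TSSs of Hr4 the highest pooled ranked signals were 14.1 and 39.1. Hr4 is followed after 30.8 kb by usp on the same chromosome, and br lies 277 kb away on the other side.

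Eip78C (FBgn0004865, chr3L:21226609-21266503, plus strand) had 2 peaks, neither of them reaching the threshold in a single replicate. Its intronic peak at chr3L:21251347-21251736 had a pooled signal of 100.1, with 60.9 in replicate 1 and 41.3 in replicate 2, and its coding exon peak at chr3L:21230740-21231129 had 75.5, with 36.9 and 35.3. Both were past the threshold in the optimal and conservative sets and in neither replicate alone. Eip78C was the only member with no peak in either replicate's set.

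ftz-f1 (FBgn0001078, chr3L:18750607-18801309, minus strand) encodes a nuclear receptor that gives tissues the competence to respond to the next hormone pulse, and its alpha form, laid down by the mother, works with Ftz in segmentation. It had 5 optimal peaks. The strongest, at chr3L:18801367-18801756, lay 253 bp upstream of the TSS of ftz-f1-RB and 250 bp from that of lncRNA:CR45939, and had a pooled signal of 132, with 55.3 in replicate 1 and 75.3 in replicate 2. The other TSSs, of ftz-f1-RC and ftz-f1-RD together and of ftz-f1-RA, had a pooled ranked signal of 21.9 at the former and none listed at the latter. The 4 intronic peaks had pooled signals from 90.7 to 118. The strongest of them, at chr3L:18784567-18784956, had 84.3 in replicate 1 and 35.7 in replicate 2, a log2 ratio of -1.24 that was the lowest of the 37. The peak at chr3L:18789501-18789890 had a pooled signal of 106, with 49.5 and 51.7 in replicates 1 and 2. That at chr3L:18769371-18769760 had 104, with 67.0 and 47.8, and that at chr3L:18791475-18791864 had 90.7, with 59.3 and 40.8. The summits of the intronic peaks of 118, 106 and 90.7 also lay within the span of lncRNA:CR45939, so by position they cannot be given to ftz-f1 alone. Only the promoter peak and the peak of 104 were past the threshold in both replicates. The conservative set held 2 further ftz-f1 peaks, with signals of 71.5 and 66.0.

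Eip93F (FBgn0264490, chr3R:21949114-22014539, plus strand), a late-acting regulator of metamorphosis and cell death, had 1 weak peak. It lay at chr3R:21992944-21993333 in an intron, 20760 bp downstream of the start of Eip93F-RA and Eip93F-RC, with a pooled signal of 84.8. Replicate 1 gave 53.3, past the threshold, and replicate 2 gave 32.3, below it. The 2 TSSs of Eip93F had pooled ranked signals of 32.2 and 33.7.

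**Figure D2:**
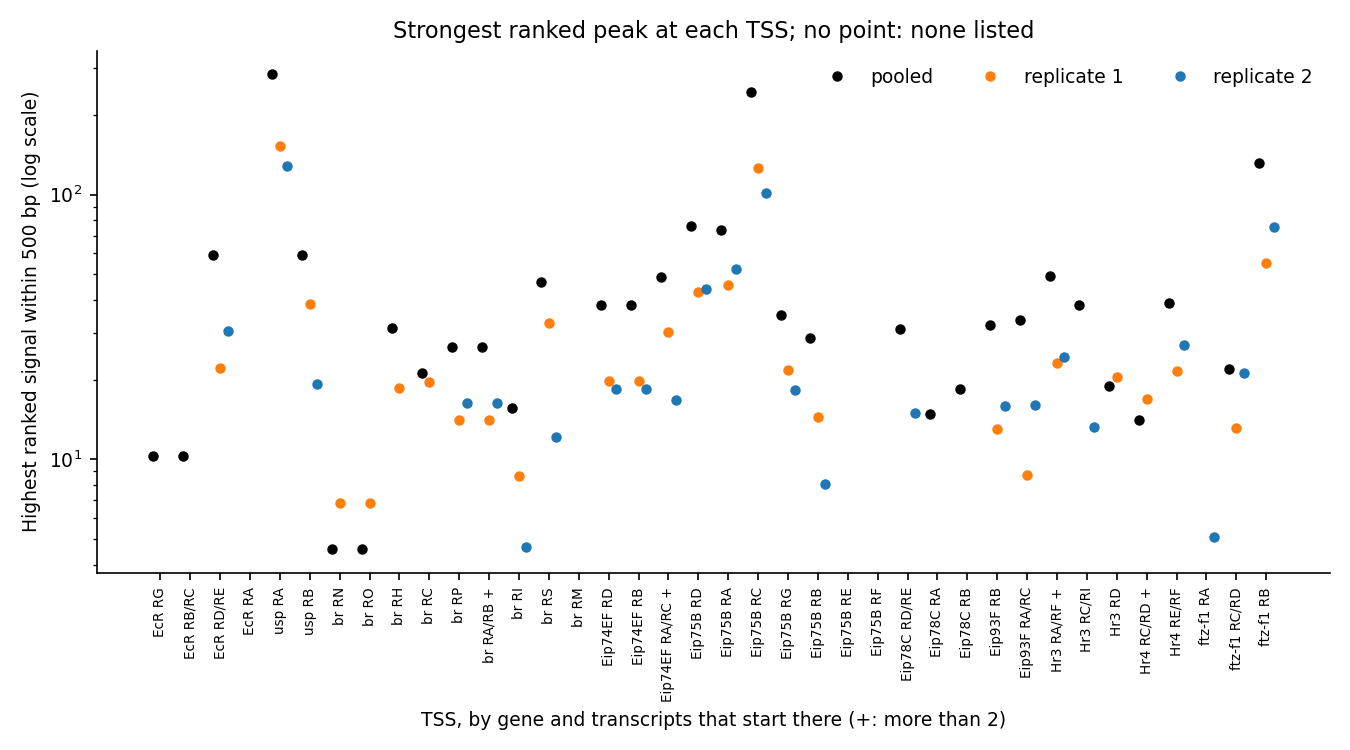
Highest signal of a ranked peak with a summit within 500 bp of each of the 38 TSSs (horizontal axis, by gene and transcript; log vertical axis, in the peak caller's units), for the pooled table and each replicate. The TSSs of usp-RA, Eip75B-RC and ftz-f1-RB stand highest with pooled signals of 284, 244 and 132, and the others reach 76.0 at most or have no ranked peak.

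The ranked table of the pooled data, which includes peaks of any strength, listed 575 peaks at the members, or 0.952 per kb of span. Over the major chromosomes, sequence outside genes included, this table listed 0.899 per kb. The optimal set was drawn from this table, so it held every one of these peaks that passed the threshold. A ranked summit lay within 500 bp of 33 of the 38 TSSs, against 76.9% of the distinct TSSs of protein-coding genes. Most start sites of these genes thus had a listed peak that was too weak or too unevenly ranked to pass. The ranked peaks that missed the threshold reached signals from 50.6 at Eip93F to 115 at Eip75B. Their highest signals overlapped those of passing peaks, because the threshold is set on the IDR and not on the signal. The replicates' own ranked tables listed 460 and 451 peaks at the members, and a summit near 27 and 24 of the 38 TSSs.

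Of the 37 peaks, 18 overlapped a peak of both replicate sets. This share compares with 55.1% of all optimal peaks and 43.6% of those more than 500 bp from any TSS. A further 5 were found in replicate 1 alone, 3 in replicate 2 alone and 11 in neither. The replicate 2 set held 1 more peak each at EcR, br and ftz-f1, with signals of 6.59, 19.0 and 5.56, and these overlapped optimal peaks already matched by a stronger replicate 2 peak. Peaks found in both had pooled signals from 104 to 961 with a median of 232, those in 1 replicate from 72.6 to 136 with a median of 98.3, and those in neither from 19.2 to 116 with a median of 75.5. The ranges overlapped, and the medians fell in that order. The conservative set held 34 of the 37, against 87.5% of all optimal peaks, and the 3 that it lacked were the EcR peak of 90.7, the Eip74EF peak of 75.3 and an Eip75B peak of 68.2.

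Every member peak overlapped a ranked peak in both replicates, also those below the threshold there. The same held for 6067 of the 6148 optimal peaks. The replicate signals of the members were higher in replicate 1 for 22 peaks and in replicate 2 for 15. Of the optimal peaks with a ranked peak in both, 63.6% were higher in replicate 1. Over the 18 peaks past the threshold in both replicates, the median log2 ratio of replicate 2 to replicate 1 was -0.26 with an SD of 0.37 over peaks, and replicate 1 was the higher in 13. The same median over the 3385 optimal peaks found in both sets was -0.18. With 2 samples of 1 group no test was made, and peaks are not replicates.

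**Figure D3:**
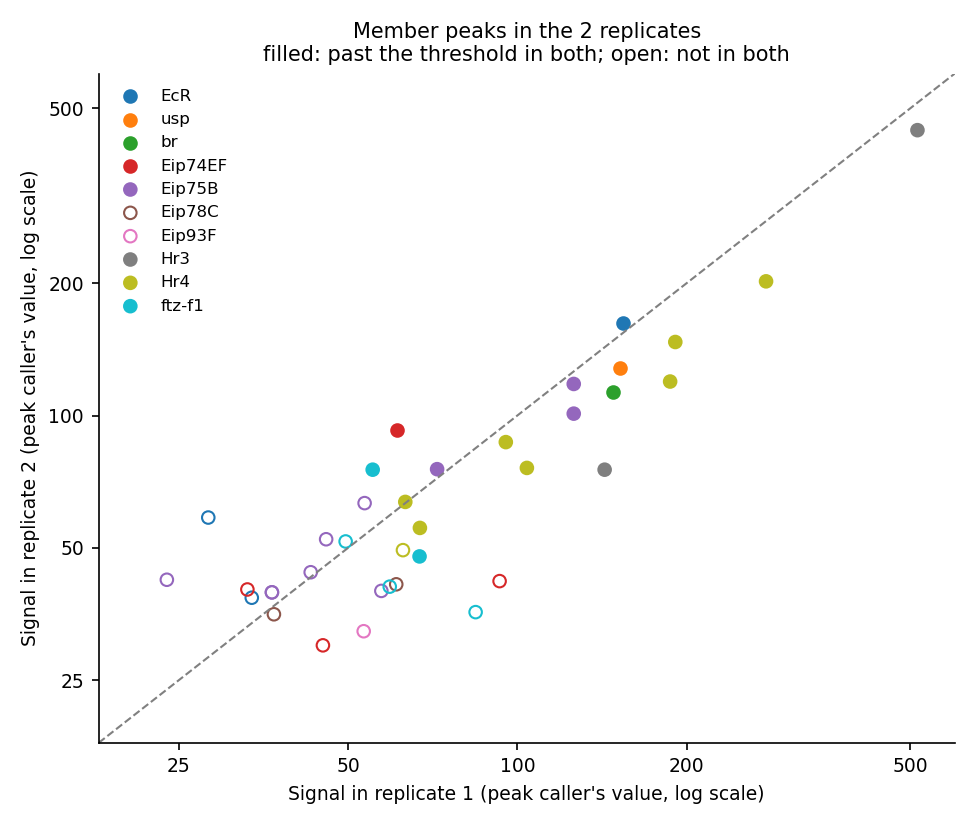
Signal of the 37 member peaks in replicate 1 (horizontal) and replicate 2 (vertical), both log axes in the peak caller's units, with the dashed line marking equal values; each point is 1 peak coloured by gene. Filled points are the 18 peaks past the threshold in both replicates; most lie above the open ones, which they overlap below about 100 in each replicate, and Hr3 at 515 and 446 is at the top.

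The 10 genes had 1 to 10 peaks, and together they had 61.2 optimal peaks per Mb of span against 44.7 per Mb of the major chromosomes. The latter rate includes sequence outside genes, so these rates are not like for like. By member, the rate ran from 0.111 peaks per 10 kb at br to 2.85 at usp, the shortest member. Among the 213 protein-coding genes of at least 63.0 kb, which include EcR, br, Eip75B, Eip93F and Hr4 but not the 5 shorter members, the median was 1 peak and the highest count was 19, at CG1677. Of these, 9 genes, including Eip75B, had at least the 10 peaks of Eip75B (4.23%), and 11 genes, including Hr4, had at least the 8 of Hr4 (5.16%). At the other end, 50.7% of them had no more than the single peak found at br and at Eip93F. No test was made of these places in the order.

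**Figure D4:**
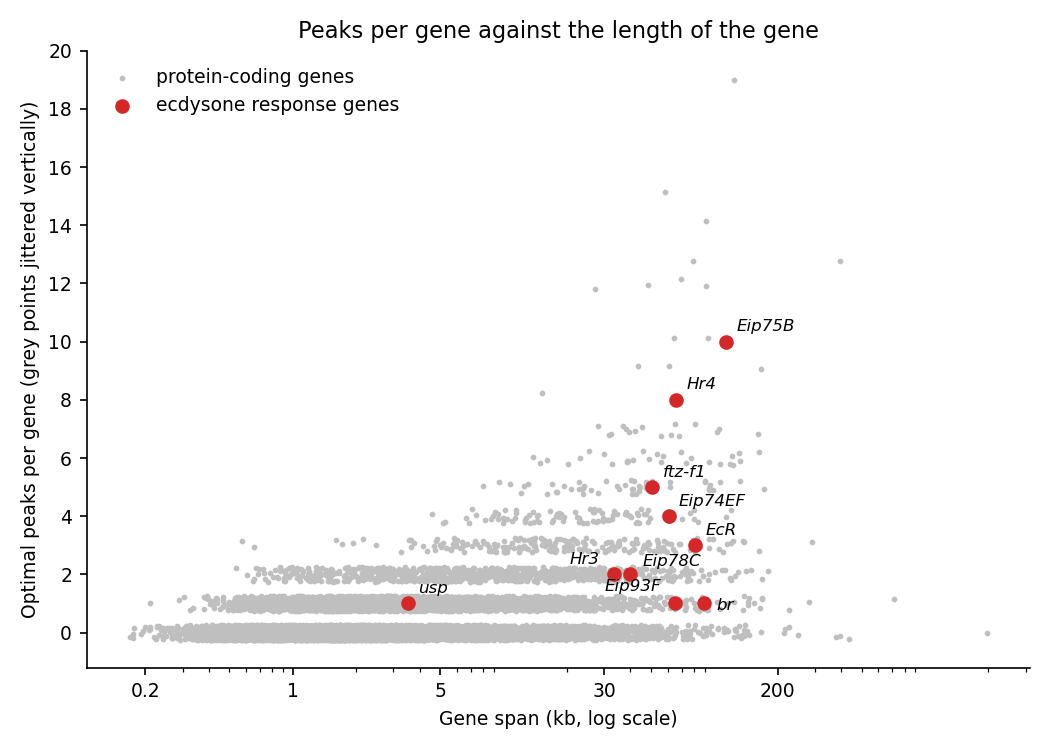
Number of optimal peaks per protein-coding gene (vertical) against gene span in kb (horizontal, log axis), in grey with vertical jitter, and the 10 members in red. Eip75B with 10 peaks and Hr4 with 8 lie above most genes of their length but below the highest, CG1677 with 19, and br and Eip93F, each with 1 peak, lie near the bottom.

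Motif matches were counted in the 200 bp around each summit, on both strands. The ecdysone response element, the inverted repeat read by the EcR and Usp dimer, was found at none of the 37 member summits and at 0.0163% of all optimal summits. The hexamer AGGTCA, read by many nuclear receptors, was found at 3 member summits (8.11%), against 3.90% of all and 4.38% of distal summits. These were the EcR peaks of 90.7 and 72.5 and the Eip74EF peak of 75.3. None of them was past the threshold in both replicates, and the EcR peak of 72.5 was the one near the TSS of CG14589. The Ets sequence CGGAAGT read by Eip74EF proteins was found at none of the member summits, against 1.45% of all. No match says only that these letters are absent from these windows.

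Sequences of core promoters and of their binding factors were counted in the same windows. GAGAG, the core of the GAGA element, was at 9 member summits (24.3%), against 21.6% of all summits and 23.5% of the distal ones. TATCGATA, the DNA replication-related element, was at 1 member summit, the ftz-f1 promoter peak, against 6.33% of all and 0.670% of distal summits. GGTCACACT, core promoter motif 1, was at none, against 4.90% of all and 0.236% of distal summits. CGATA, which is also part of TATCGATA, was at 9 member summits (24.3%), against 34.4% of all and 20.0% of distal summits. CAGCTG, the E-box motif, was at 6 (16.2%), in Eip75B, Eip78C, Hr4 and ftz-f1, against 11.8% and 7.41%. CAGGTA, the core of the Zelda site, was at 1, in Eip74EF, against 4.16% and 4.14%. TATAAA was at 5 (13.5%), against 30.3% and 30.9%, and the Initiator as TCAGTC or TCAGTT at 3 (8.11%), against 16.7% and 17.3%. The median GC content of these windows was 41.5% at member summits and 37.5% at all summits, and its part in these shares was not tested.

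**Figure D5:**
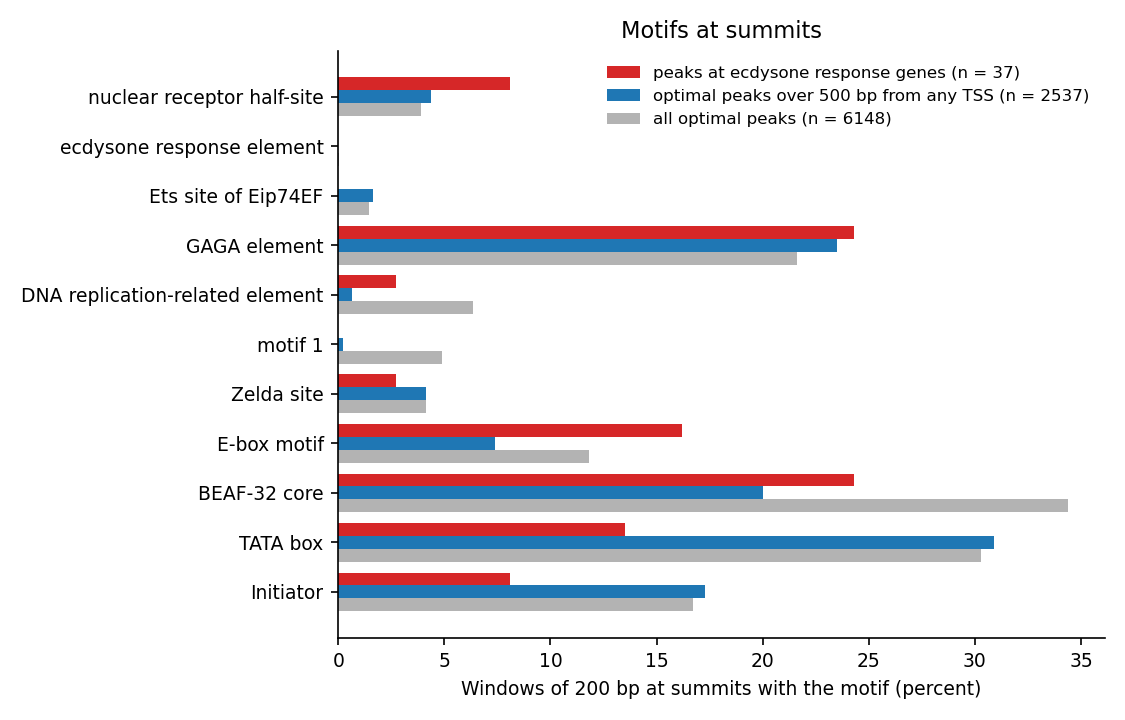
Percent of 200 bp summit windows (horizontal axis, from 0) that hold each motif (vertical axis), for the 37 member peaks, the 2537 optimal peaks more than 500 bp from any TSS and all 6148 optimal peaks. Member peaks lie nearer the distal peaks than all peaks for motif 1, at 0% against 0.236% and 4.90%, and below both for TATAAA at 13.5%.

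Other genes of the hormone's pathway were counted in 8 classes that hold 111 names, of which 108 matched the annotation. A peak at a TSS or in the span was found for 35 of the 108 (32.4%), near the background of 35.4%. The receptor's partners and coregulators had a peak in 11 of 14 cases (78.6%), and 10 of these genes had one near a TSS. Over all protein-coding genes, 31.0% had a peak near a TSS. The median span of this class was 7.75 kb, against 2.16 kb over all protein-coding genes, and the part of span in these counts was not tested. The strongest peaks of the class were at gce, a receptor for juvenile hormone, with a pooled signal of 862, and at tai, a coactivator of EcR, with 613. The replicates gave 470.5 and 381 at gce, and 284 and 333 at tai. The gce summit was 533 bp from the nearest gce TSS, just outside the window, and 259 bp from that of asRNA:CR44429. The tai peak was 217 bp from a TSS of tai and also 47 bp from a TSS of CG9586. The third was at a nucleoporin gene with 390.1.

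Of 15 matched synthesis genes 2 had a peak (13.3%), against 35.4% of all protein-coding genes. Their median span was 3.12 kb, against 2.16 kb over all protein-coding genes. The 2 were the zinc finger genes woc, with a pooled signal of 116, and mld, with 68.4, whose proteins regulate the enzyme genes. The mld summit was 18060 bp from the nearest mld TSS and 49 bp from that of lncRNA:CR46095, so by position it cannot be given to mld alone. The matched enzyme genes of the list had none, and phm, another enzyme gene, was not matched. Release, uptake and breakdown had 1 of 6, the transporter gene E23 with a pooled signal of 901, and its summit was 232 bp from its TSS. The replicates gave 461 and 426 there. Peptide signals of ecdysis had 0 of 8, and salivary glue and late puff genes had 0 of 17. Both classes have short genes, with median spans of 1.86 and 1.13 kb, and a shorter span holds fewer summits; the part of span in these counts was not tested.

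Downstream classes were mixed, beside the 35.4% of all protein-coding genes that had a peak. Other nuclear receptor genes had a peak in 4 of 13 cases (30.8%), all near a TSS. The strongest were Hr96 at 533, ERR at 455 and Hnf4 at 213. The Hr96 summit was also 55 bp from a TSS of EMC6, and that of ERR was 34 bp from one of Atg18a. Other timing and late genes had 9 of 22 (40.9%). They were led by the kinase gene Eip63E with 586, Ldh, listed as ImpL3, with 473, and ImpL2, which encodes an insulin-binding protein, with 419. Cell death genes had 8 of 13 (61.5%), led by the inhibitor gene Diap1 with 333, the autophagy gene Atg8a with 231 and hid with 209. The median spans of these classes were 8.06, 3.55 and 3.46 kb in that order, against 2.16 kb over all protein-coding genes. The part of span in these counts was not tested. The strongest summits of Eip63E, ImpL2 and Diap1 were 2332, 1089 and 670 bp from a TSS of their gene, and that of Atg8a was 32 bp from its own TSS and 167 bp from one of BTBD9.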

How the data were processed

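Biological replicates of 1 group, 2 in number, were measured by chromatin immunoprecipitation and sequencing. Per the labels, chromatin was sheared by sonication to 200 to 800 bp. The authors deposited peak lists on dm6, per the labels made with the IDR procedure for each replicate and for both together. Aligner, caller, versions and read depth were not given in the sources used here. Precision from counting is therefore unknown. The deposited signal is the caller's value per peak. Each deposited score is a scaled IDR that reaches 1000 and is at least 830 in every thresholded set. In the ranked tables the authors also gave −log10 values of the global IDR, of at most 5, and these were used to find the stricter set. The deposited summit offset gave each summit's position. The column of p-values was not used.

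Genes and TSSs came from Ensembl release 115 (FlyBase 6.54) and sequence from the NCBI Release 6 genome, and no peak exceeded a chromosome's end. Peaks on the major chromosomes (arms of 2 and 3, and 4, X and Y) were used, 6148 of 6174 in the optimal set. Overlap means at least 1 bp. Assignment, overlap and motif functions were tested on simulated data, and 200 of 200 made genes were assigned as planted. Python 3.11.15, pandas 2.3.3 and numpy 2.4.6 were used.

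The members, pathway classes, motifs and rules were chosen with earlier results of these data known. All members are named, and of each pathway class up to 3 genes with the strongest peak. Pathway names absent from the annotation were matched through NCBI synonyms. The alternatives were other peak sets, TSS windows, overlap rules and signal scalings. No test was made, since the series has 1 group, and peaks are not replicates.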

Additional observations from a re-analysis of the deposited data

How the results depend on the processing

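The number of members with a peak stayed between 7 and 10 under every alternative run. It was 10 in the conservative set, 8 at a global IDR of 0.001, where Eip78C and Eip93F had none, and 7 in the stronger 50% of the peaks, where ftz-f1 had none either. Leaving out a replicate gave 8 to 9 members. The number of member peaks was 37 and fell to 24 without replicate 1 and to 23 without replicate 2, to 21 at a global IDR of 0.001 and to 16 in the stronger 50%, since these sets hold fewer peaks. The number of TSS-proximal member peaks was 5, and it was 3 at a global IDR of 0.001, 2 in the stronger 50%, 3 with a TSS window of 200 bp, 1 with 1 TSS per gene and 3 to 4 with a replicate left out. With 1 TSS per gene, 1 member, ftz-f1, had a TSS-proximal peak in place of 3. Of 49 values recomputed, 39 stayed within 1.5 times the reported count, or within 1 SD of the reported ratio. Only the ratio could change sign, and it did not. The ratio of the replicates had a median log2 of -0.21 with ranked peaks and -0.13 with median-scaled signals. No paired analysis was possible because the series holds 1 group. Without read depth, weak and absent binding cannot be told apart.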
